A study of Mus musculus with 38 samples.

Results

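The lowest dose of Kal-1, an aqueous ethano-botanical formulation, was compared with the high fat diet it was added to, in brown adipose tissue of C57BL/6J mice. The comparison took the scanner files of the groups HF5 (high fat diet with 5 µg of Kal-1) and HFC (high fat diet alone) at Weeks 3, 6, 9, 12, 15 and 18, which are 12 of the 38 arrays of the series, 6 in each group and 1 for each group and week. The weeks are not counted from the start of the diet. By the paper's conversion for this experiment they are Days 35, 56, 77, 98, 119 and 140 of the diet. Mice were divided at random after weaning, at 3 to 4 weeks of age, into groups of 30, and 5 animals of each group were killed every 3 weeks. Both groups received the same diet, rich in sucrose, with 60% of its calories from fat. The other groups were a low fat control diet with 10% of calories from fat (LFC) and the high fat diet with 20 or 75 µg of Kal-1 (HF20 and HF75). The labels used here give no sex, no body weight or volume to which 5 µg refers, and do not say whether an array held RNA of 1 animal or of several. The design text names 3 biological replicates, while the files used here hold 1 array for each group and week. The p-values therefore measure the spread between weeks, which differ in age, time on diet and hybridisation.

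Brown adipose tissue produces heat: its adipocytes burn fatty acids in many mitochondria, whose uncoupling protein, Ucp1, lets protons return across the inner membrane without making ATP. Noradrenaline from sympathetic nerves starts this program through beta-adrenergic receptors and cyclic AMP. On a high fat diet the tissue is known to store more lipid and to take on features of white fat, with more macrophages. The tissue label held in these arrays. Ucp1 was well above background on 6 of 6 HF5 arrays and 6 of 6 HFC arrays, and so were Cidea, a lipid droplet protein, and Prdm16, a regulator of brown fat identity. Levels here and below are log2 of the processed signal relative to the 75th percentile of the array, so that 0 is the level of a fairly bright probe, and differences are HF5 minus HFC on the log2 scale. On this scale Ucp1 ranged from 5.27 to 8.57 in HF5 and from 6.04 to 8.24 in HFC. Ddx3y and Eif2s3y, genes of the Y chromosome, were also well above background on 6 of 6 arrays of each group.

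In the fit paired by week, limma called 0 of 18449 genes (0%) at an adjusted p under 0.05, with 0.708 as the lowest adjusted p. Unadjusted, 1040 genes had a p under 0.05, of which 515 (2.79% of those tested) were higher and 525 (2.85%) lower in HF5. The median difference over all genes was 0.07, its median size was 0.31 and the median standard error was 0.34, so a typical gene differed by about its error. Of the 18414 genes measured on all 12 arrays, 749 (4.07%) were higher in HF5 in 6 of 6 weeks and 258 (1.4%) were lower. These shares depended on the background correction. With normexp, 1386 genes were higher and 49 lower at an unadjusted p under 0.05, so the share of higher genes went from 49.5% to 96.6%. It was 69.6% with signals floored at the background, and 16.9% when each week's median over all genes was first subtracted, which moved the median over all genes from 0.07 to -0.07.

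The weeks were not alike. HF5 and HFC were at least 2-fold apart in 9205 genes at Week 3, or 49.9% of those measured. The pairs of Weeks 6, 9 and 15 were closer, with 2131 (11.6%), 2617 (14.2%) and 2744 genes (14.9%). Week 12 had 6372 (34.5%) and Week 18 had 7652 (41.5%). The genes past 2-fold at Week 3 held 5610 higher and 3595 lower in HF5, and those at Week 15 held 328 higher and 2416 lower. Across genes, HF5 correlated with HFC of the same week at r = 0.86, 0.98, 0.97, 0.93, 0.97 and 0.89 from Week 3 to Week 18, as a description over genes that share 2 arrays. The weekly differences of Week 3 correlated at -0.25 with those of Week 6, -0.20 with those of Week 15 and -0.34 with those of Week 18. The Week 3 pair thus ran against 3 of the other weeks, while Weeks 15 and 18 correlated at 0.35 and Weeks 12 and 15 at 0.32.

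The arrays differed in brightness, HF5 below HFC in some weeks and above it in others. The 75th percentile of the signal was 172, 173, 54.0, 68.5, 163 and 35.8 units on the HF5 arrays from Week 3 to Week 18, and 695, 163, 48.3, 120, 239 and 49.8 on the HFC arrays. HF5 was dimmer in 4 of 6 weeks and brighter at Weeks 6 and 9. The mean difference was -0.60 on the log2 scale (SD 0.79, n = 6 weeks; exact two-sided sign-flip permutation test, p = 0.125, where the design allows no p below 0.0312), and -0.32 without Week 3. The share of probes well above background ran from 36.6% to 57.7% in HF5 and from 43.6% to 78.8% in HFC. The HFC array of Week 3 stood apart, with 488 saturated probes where the other HFC arrays had 7 to 43. The HFC arrays of Weeks 3 and 18 were the least like the rest, each with a median correlation of 0.86 with the other 11 arrays. The part of brightness in the differences was not tested beyond a fit with it as a covariate, which called 0 genes.

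**Figure D1:**
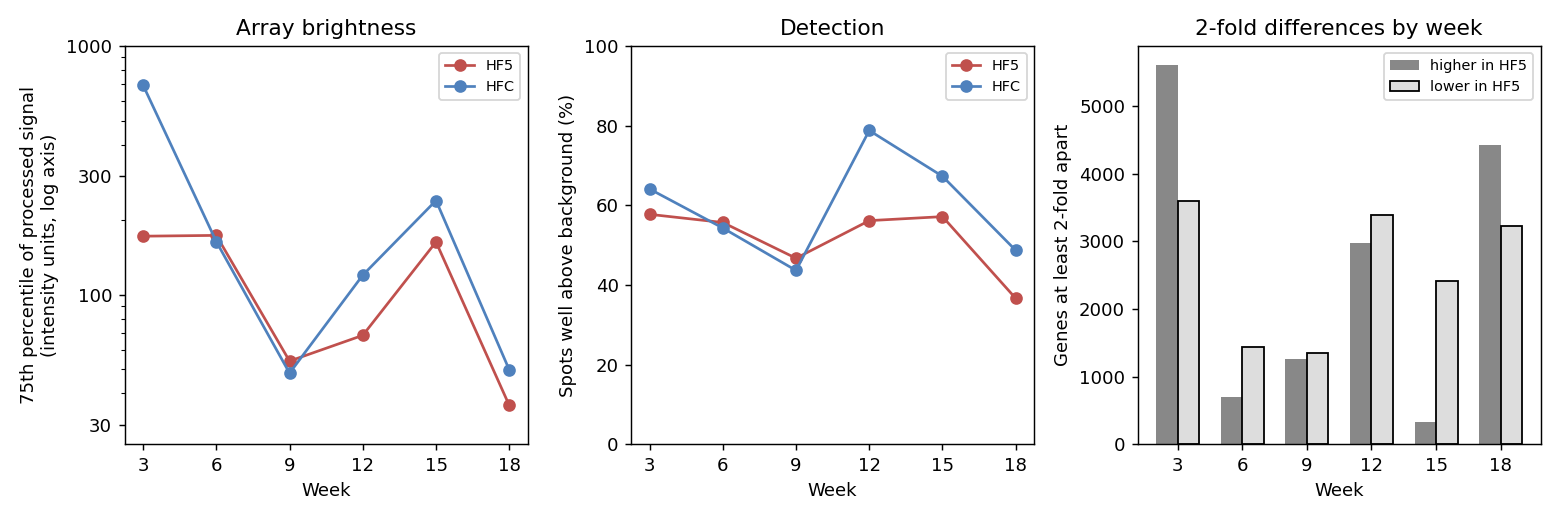
Array brightness (75th percentile of processed signal, log axis), the share of probes well above background and the number of genes at least 2-fold apart, by week, with 1 array per group and week and no error bars. HFC was brighter than HF5 at Weeks 3, 12, 15 and 18, and the 2-fold counts were highest at Week 3 (9205 genes) and Week 18 (7652 genes).

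The genes described first are the 10 higher and the 10 lower in HF5 with the smallest p among those of the same sign in 6 of 6 weeks, well above background on at least 10 of 12 arrays and with an established symbol. Each had an adjusted p of 0.708 by limma, so the text gives their values and claims no change. Each kept its sign under the 24 or 25 alternatives it could be computed for, and none passed the threshold under any of them. Alternatives that only left out weeks or the week block had to keep the sign, because the rule required it in each week. Each probe is a 60-base oligonucleotide of the custom array. Those of the genes shown week by week are printed here, because the level of a gene on this array is the level of its probe. In the last of them, that of Gm5955, capitals mark the 2 bases at which it differs from the probe of another gene model, Gm2001, so both transcripts could bind it.
Trem2: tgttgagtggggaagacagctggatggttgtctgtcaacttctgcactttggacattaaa
Capg: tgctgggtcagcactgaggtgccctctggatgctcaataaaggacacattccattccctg
S100a4: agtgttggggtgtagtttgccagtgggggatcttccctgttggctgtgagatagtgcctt
Oas2: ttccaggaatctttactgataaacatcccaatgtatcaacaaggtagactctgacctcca
Aprt: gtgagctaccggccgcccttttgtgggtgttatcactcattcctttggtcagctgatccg
H2-DMa: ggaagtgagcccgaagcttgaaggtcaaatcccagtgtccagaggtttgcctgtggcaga
Cybb: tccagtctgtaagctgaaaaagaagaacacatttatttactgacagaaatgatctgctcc
Ms4a4b: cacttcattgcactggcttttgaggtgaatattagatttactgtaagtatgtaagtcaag
Plaat5: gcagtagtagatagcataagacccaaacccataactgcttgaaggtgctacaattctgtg
Gm5955: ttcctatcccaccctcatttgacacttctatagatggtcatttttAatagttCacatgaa

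Among the genes higher in HF5, 3 are known from macrophages and other motile cells. Trem2, a lipid-sensing receptor of macrophages on chromosome 17, had levels of -0.80, -0.98, -0.08, 0.88, 1.13 and 0.18 in HF5 from Week 3 to Week 18. In HFC they were -1.67, -1.78, -0.73, -1.43, 0.32 and -0.77. HF5 was above HFC in each week although the groups overlapped, and the difference was 1.06 (SE 0.29), or 2.32 at Week 12 and 0.65 to 0.95 in the other weeks. The second probe of Trem2 gave 0.50 and was also higher in 6 of 6 weeks. Capg, an actin-capping protein on chromosome 6, had 2.51, 2.50, 2.80, 3.68, 3.69 and 3.10 in HF5 and 0.78, 2.29, 1.76, 1.90, 3.57 and 1.92 in HFC. The pairs of Weeks 6 and 15 nearly coincided, and the difference was 1.01 (SE 0.31). Its other probes gave 1.05 and 0.81, each higher in 6 of 6 weeks. S100a4, a calcium-binding protein of migrating cells on chromosome 3, had 3.50, 2.83, 3.74, 5.44, 4.35 and 4.13 in HF5 and 1.68, 2.38, 2.28, 3.07, 4.33 and 3.08 in HFC. The values of Week 15 coincided, and the difference was 1.19 (SE 0.35).

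Oas2, an interferon-induced enzyme that senses double-stranded RNA (chromosome 5), was even in HF5 and uneven in HFC. Its levels were 1.62, 1.96, 2.02, 1.47, 1.89 and 1.36 in HF5 (mean 1.72 ± 0.28 SD, n = 6) and 0.17, 1.55, 1.03, 0.02, 1.26 and 0.32 in HFC (0.73 ± 0.64). The lowest HFC values lay at Weeks 3, 12 and 18, the weeks with the most genes past 2-fold. The difference was 0.99 (SE 0.25), while its other probe, well above background on 1 of 12 arrays, gave 0.03. Aprt, which returns adenine to the nucleotide pool (chromosome 8), had 2.43, 2.86, 2.80, 2.99, 3.16 and 3.32 in HF5 and 1.78, 2.52, 2.40, 0.97, 2.25 and 1.74 in HFC, a difference of 0.98 (SE 0.30). An earlier fit of these data also put Aprt among its first genes, which is the same evidence seen again.

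The remaining genes of the higher group do different things. Rnase2a, a ribonuclease of eosinophils on chromosome 14 that the array design calls Ear11, was at -0.82 ± 1.33 (SD, n = 6) in HF5 and -2.12 ± 1.34 in HFC, a difference of 1.30 (SE 0.26). Both groups spanned several log2 units, so only the pairing by week set them apart. Isoc2b on chromosome 7 was at 0.75 ± 0.69 in HF5 and -0.36 ± 0.79 in HFC, with weekly differences from 0.23 to 1.56. B3galnt1, a glycosyltransferase of glycolipid synthesis on chromosome 3, differed by 0.83 (SE 0.24), while its second probe gave 0.10. Foxd2, a forkhead transcription factor on chromosome 4, differed by 1.03 (SE 0.31), most at Week 3 with 2.34, while its second probe gave 0.44 and was higher in 3 of 6 weeks. Cdc42ep1, an effector of the small GTPase Cdc42 on chromosome 15, differed by 1.05 (SE 0.32), and each of its HF5 arrays was above each HFC array. A second probe of Cdc42ep1, well above background on 12 of 12 arrays, gave 0.12 and was higher in 3 of 6 weeks.

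Among the genes lower in HF5, 3 belong to immune cells. H2-DMa, which helps to load peptides onto class II molecules (chromosome 17), had levels of -3.61, -2.27, -2.57, -2.17, -2.74 and -2.37 in HF5. In HFC they were -2.15, -1.73, -1.69, -0.05, -2.08 and -1.78, and every HF5 array was below every HFC array. The difference was -1.04 (SE 0.29). The HF5 array of Week 18 was not well above background for H2-DMa. With signals floored at the background that week's difference was 0.08, so neither the separation nor the sign in every week held. Cybb, the catalytic subunit of the phagocyte NADPH oxidase on chromosome X, had -2.91, -3.29, -1.51, -2.09, -1.73 and -3.84 in HF5 and -1.91, -2.91, -0.07, -1.57, -0.91 and -2.21 in HFC. Week 9 gave the highest value in each group, and the difference was -0.96 (SE 0.26), or -0.61 with signals floored at the background. The HF5 array of Week 18 was not well above background for Cybb, and with the floor that week's difference was 0.50. Ms4a4b, a membrane protein of T cells on chromosome 19, had -2.06, -3.29, -0.50, -3.75, -2.53 and -3.99 in HF5 and -1.88, -2.41, 0.08, -0.76, 0.05 and -2.15 in HFC. The Week 3 values nearly met, and the difference was -1.51 (SE 0.42), or -1.03 with the floor. Ms4a4b was not well above background in HF5 at Weeks 12 and 18, and with the floor its Week 18 difference was 0.44. The other probes of Ms4a4b gave -0.93, -0.86 and -1.37, the last lower in 6 of 6 weeks.

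The other genes of the lower group are mostly not known as genes of fat. Col2a1, the collagen of cartilage (chromosome 15), differed by -1.36 (SE 0.27). At Week 18 it was not well above background in either group, and with the floor that week's difference was 0.40. Obox3-ps2, a pseudogene of the Obox homeobox family on chromosome 7, differed by -1.81 (SE 0.38). Defa3, an intestinal alpha-defensin on chromosome 8, was at 1.58 ± 0.70 (SD, n = 6) in HF5 and 2.58 ± 0.82 in HFC. Its difference was -1.01 (SE 0.23), while its second probe was well above background on 0 of 12 arrays and gave 0.20. Sptbn4, a spectrin of axons (chromosome 7), differed by -1.07 (SE 0.26), Gsx1, a homeobox factor of the nervous system (chromosome 5), by -1.25 (SE 0.32) and Tas2r109, a bitter taste receptor (chromosome 6), by -0.92 (SE 0.27). Tmem259 on chromosome 10 differed by -0.96 (SE 0.29), but by almost nothing at Week 6.

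**Figure D2:**
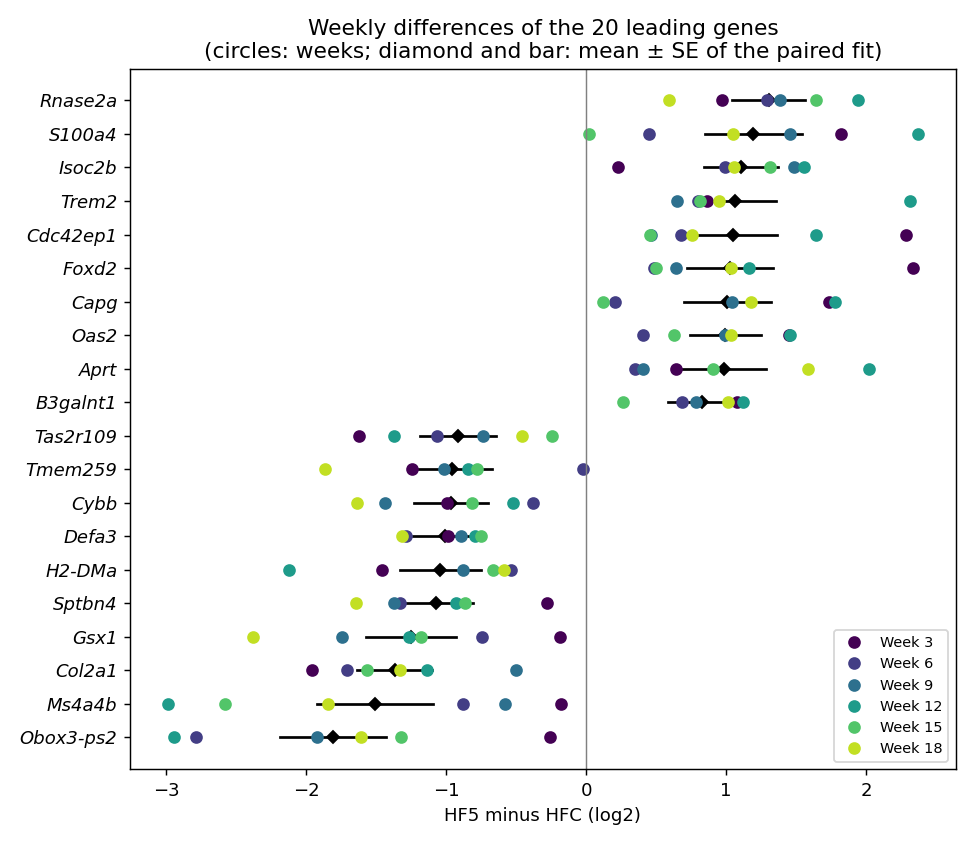
Weekly differences (HF5 minus HFC, log2) of the 10 genes higher and the 10 lower in HF5 that the rule named, with circles for the 6 weeks and a diamond and bar for the mean and standard error of the paired fit. By measured signal, all 6 weeks lie on the same side of 0 for each gene, as the rule required, with means from -1.81 for Obox3-ps2 to 1.30 for Rnase2a. With signals floored at the background, the Week 18 differences of Col2a1, H2-DMa, Cybb and Ms4a4b were above 0.

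The genes with the smallest p of all were dim. Plaat5, a phospholipid acyltransferase on chromosome 19 that the array design calls Hrasls5, was well above background on 0 of 6 HF5 arrays and 5 of 6 HFC arrays. Its measured means were -4.64 ± 0.67 (SD, n = 6) in HF5 and -2.04 ± 1.58 in HFC, a fitted difference of -2.60 (SE 0.38), with an adjusted p of 0.708 by limma. Since HF5 gives only an upper bound, the mean of HFC was set against the mean of the lowest signals called well above background on the HF5 arrays, or the signal of the probe where that was higher. By this measure Plaat5 was 2.73-fold lower in HF5 on these arrays. The HFC mean includes Week 9, where Plaat5 was not well above background, so this is not a strict minimum. Plaat5 passed the filter only through its HFC arrays and was picked for its p, so no change is claimed. Its second probe gave -0.56 and was higher in HF5 in 3 of 6 weeks, so the probes of Plaat5 disagreed. Gm5955 on chromosome 12 was well above background on 3 of 6 HF5 arrays and 6 of 6 HFC arrays, with -3.12 ± 0.36 against -1.47 ± 0.56 and a difference of -1.65 (SE 0.25). Gm11783, well above background on 1 of 6 HF5 and 3 of 6 HFC arrays, differed by -1.30 (SE 0.24), or -0.66 with the floor. The floor differs between arrays. A gene below it on both arrays, as Gm11783 was, gives -0.42 at Week 6, -0.48 at Week 9 and 0.76 at Week 18 whatever its signal. By measured signal, Plaat5 and Gm5955 were the 2 genes at least 2-fold lower in HF5 in 6 of 6 weeks, where 0 genes were 2-fold higher in each week. At Week 9 Plaat5 was not well above background in either group, and its difference with the floor was -0.48.

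All 6 HF5 arrays were above all 6 HFC arrays in 24 genes (0.13%) and below them in 5 (0.0272%). Those below were Plaat5, Gm5955, H2-DMa, Fbxo27, an F-box protein (-1.11), and Gm2778 (-0.58). These counts use the measured signal. With the floor H2-DMa was 0.08 higher in HF5 at Week 18, where its HF5 array was not well above background. Those above were led by Cdc42ep1 and included Hoxb7, a homeobox factor of body position (1.20, SE 0.38), Lyl1, a factor of blood and endothelial cells (1.08, SE 0.35), F11r, a junctional adhesion molecule (0.97, SE 0.32), and Mfge8, which bridges dying cells to phagocytes (0.65, SE 0.25). Hoxb7, Lyl1, F11r, Mfge8, Fbxo27 and Gm2778 were singled out here after their values were seen.

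**Figure D3:**
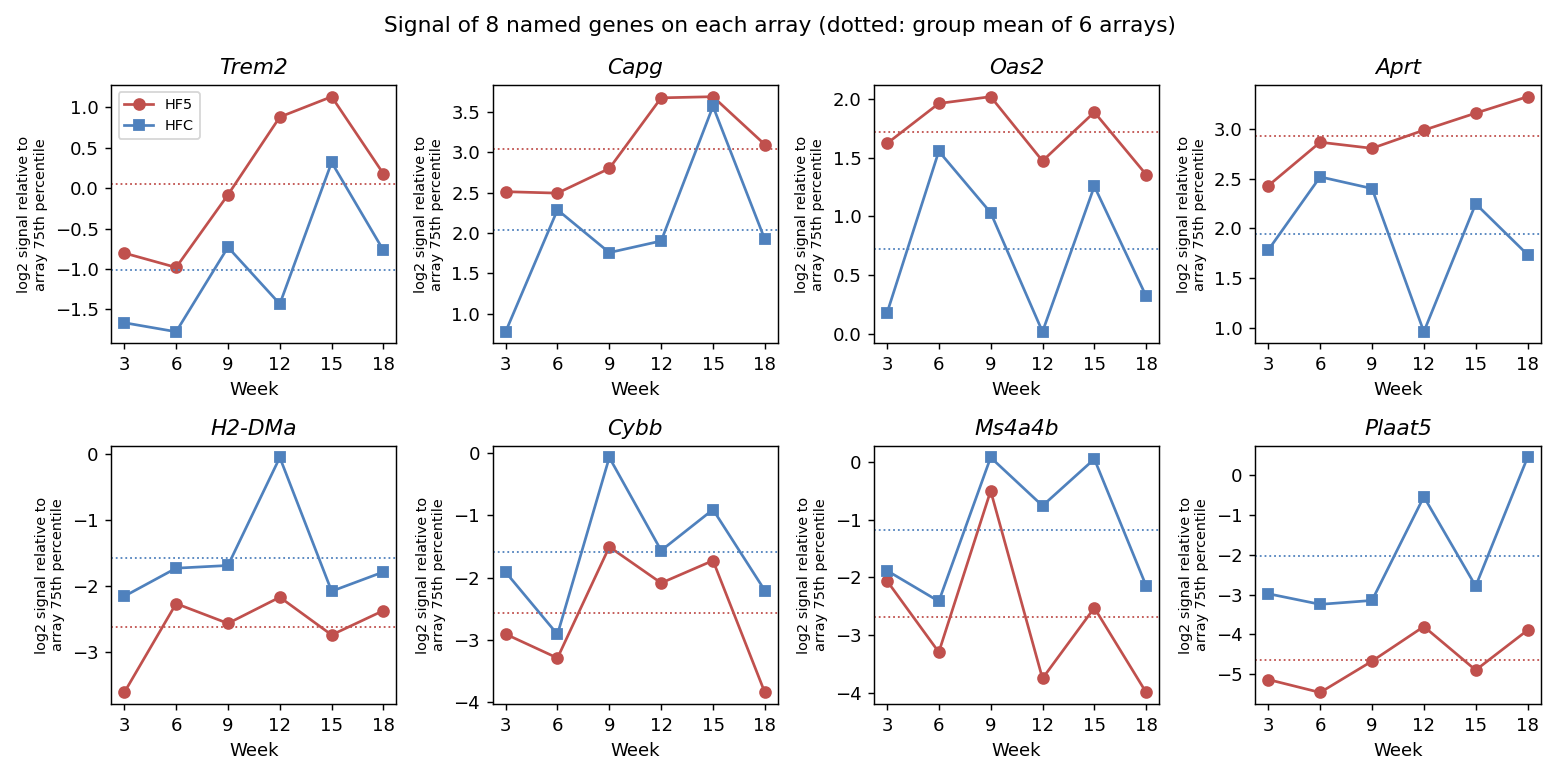
Levels of 8 named genes on each of the 12 arrays (log2 of signal relative to the 75th percentile of the array) by week, with red circles for HF5, blue squares for HFC and dotted lines for the group means of 6 arrays. By measured signal, Trem2, Capg, Oas2 and Aprt lie above HFC in HF5 in each week, and H2-DMa, Cybb, Ms4a4b and Plaat5 below. The HF5 array of Week 18 was not well above background for H2-DMa, Cybb, Ms4a4b and Plaat5. With the floor, the Week 18 differences of H2-DMa, Cybb and Ms4a4b were 0.08, 0.50 and 0.44.

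An earlier fit of these data also put Aebp1 and Aifm3 among its first genes. Aebp1, a matrix protein of fibroblasts and adipocyte precursors on chromosome 11, was well above background on 2 of 6 HF5 and 5 of 6 HFC arrays and differed by -2.06 (SE 0.42), or -0.91 with the floor. Aifm3, a mitochondrial flavoprotein on chromosome 16, was well above background on 4 of 6 and 5 of 6 arrays and differed by -1.23 (SE 0.33), or -0.87 with the floor. Its Week 18 difference was -2.78, or -0.85 with the floor.

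Whether the difference changed over time was asked with a term for week. limma called 0 of 18449 genes (0%), with 0.0836 as the lowest adjusted p and 3130 genes under 0.05 before adjustment. Among the genes with the smallest p under the same conditions on symbol and background were Acr, the sperm protease acrosin (chromosome 15), and Ly6d, a surface protein of early B cells and epithelia (chromosome 15). The difference in Acr went from 3.02 at Week 3 through 0.71, -0.46, -1.11 and -1.97 to -6.32 at Week 18, and that in Ly6d from 1.94 through 1.11, -0.24, -1.13 and -1.40 to -2.57. The HF5 arrays of Week 18 were not well above background for either gene, and with the floor the Week 18 differences were -5.51 for Acr and -0.30 for Ly6d. Their slopes were -0.53 and -0.30 log2 units per week, or -0.49 and -0.19 with the floor, under which limma also called 0 genes (lowest adjusted p 0.0967). Acr in HFC went from -4.07 at Week 3 to 3.80 at Week 18, where HF5 stayed between -2.52 and -0.39. Without Week 6, limma called 1082 genes as changing with week, Acr and Ly6d among them (adjusted p 0.0124 and 0.0240), and without Week 3 it called 0, with 0.516 as the lowest adjusted p. Their mean differences over the 6 weeks crossed 0 among the alternatives. The outermost weeks hold the HFC arrays that stood apart, and their part in the result was not tested.

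The known genes of brown fat and its surroundings were then read as 35 lists of 547 symbols, 505 of which were tested. limma called 0 members of any list, against 0% of all genes, so the lists are described by their counts and medians beside the median of 0.07 over all genes tested. Of all 18449 genes, 10416 were higher and 8033 lower in HF5.

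The heat-producing program showed no common direction. Of the 20 brown thermogenic genes, 7 were higher and 13 lower in HF5, with a median of -0.09, and the weekly medians were -3.81, 0.73, 0.35, -0.16, -0.03 and 0.89 from Week 3 to Week 18. Week 3 thus opposed Weeks 6, 9 and 18, and without it the median was 0.56. The HFC array of Week 3 was saturated for 5 of the 20, Ucp1 among them, so their Week 3 differences are bounds. Ucp1 differed by -0.06 (SE 0.37) and by -0.53 on a second bright probe, Ppargc1a, the coactivator of mitochondrial biogenesis, by -0.61 (SE 0.82), and Dio2, which activates thyroid hormone, by 0.03 (SE 0.80). Elovl3, a fatty acid elongase that marks active brown fat, differed by 1.14 (SE 0.44) and was higher in 4 of 6 weeks, by 2.12 at Week 6 and 3.01 at Week 9. Esrrg, a nuclear receptor of oxidative metabolism, differed by -1.03 (SE 0.32) and was lower in 6 of 6 weeks, while its second probe gave -0.66 and was lower in 3 of 6. Elovl3 and Esrrg were the members at an unadjusted p under 0.05, 1 in each direction, where 2.79% of all genes were higher and 2.85% lower. Among 14 adrenergic and cyclic AMP genes the median was -0.03, and 0.07 after quantile normalization. Adra1a, an alpha-adrenergic receptor, differed by -1.53 (SE 0.45) and was lower in 6 of 6 weeks, while its second probe gave -0.96 and was lower in 3 of 6. Adrb3, the main beta-adrenergic receptor of adipocytes, differed by -0.03 (SE 0.71) and swung from -4.20 at Week 3 to 1.79 at Week 6.

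Lipid and fuel genes also had their lowest medians at Week 3. The triglyceride storage and lipolysis list (19 genes, median -0.05) had weekly medians of -2.73, 0.58, 0.41, -0.62, 0.42 and 1.11, and 6 members were higher in at least 5 of 6 weeks, where 22.3% of all genes were. Its median was 0.35 without Week 3. Gpd1, which makes the glycerol backbone, measured higher in 6 of 6 weeks by 0.31 (SE 0.25). The HFC array of Week 3 was saturated for Gpd1, so its Week 3 difference of 0.17 is an upper bound. Plin2, a coat protein of lipid droplets, differed by 0.55 (SE 0.28), and Pnpla2, the first lipase of fat breakdown, by -0.04 (SE 0.38). Fatty acid synthesis (19 genes) had a median of -0.14, and 0.02 with normexp, with Fasn, the fatty acid synthase, at 0.11 (SE 0.28) and Scd1, the main desaturase, at -0.14 (SE 0.42). Cholesterol synthesis (21 genes) had a median of -0.06. In the lipid uptake list (12 genes, median 0.13), 3 members were higher at an unadjusted p under 0.05, where 2.79% of all genes were. These were Fabp5, a fatty acid carrier of macrophages and endothelium (0.99, SE 0.37, higher in 6 of 6 weeks), Gpihbp1, which holds lipoprotein lipase on capillaries (0.97, SE 0.39), and Angptl4, an inhibitor of that lipase (0.72, SE 0.31). The HFC array of Week 3 was saturated for 3 of the 12 listed genes, Angptl4 among them. The Week 3 difference of Angptl4, 1.42, and its mean of 0.72 are thus upper bounds.

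The mitochondrial and sugar lists had medians near 0 over the 6 weeks, with Week 3 far below 0 and Week 18 above it. Fatty acid oxidation (19 genes) had a median of -0.11, with -3.08 at Week 3 and 1.27 at Week 18. The tricarboxylic acid cycle (16 genes) had -0.22, the respiratory chain and ATP synthase (21 genes) 0.02 or -0.43 after quantile normalization, glucose uptake and glycolysis (16 genes) 0.03 or -0.27, and the breakdown of branched-chain amino acids (16 genes) -0.10. Without Week 3 these medians were 0.37, 0.28, 0.42, 0.43 and 0.39, and that of fatty acid synthesis was 0.16. Mdh2, the malate dehydrogenase of mitochondria, measured higher in 6 of 6 weeks by 0.62 (SE 0.27), but differed by -0.01 after quantile normalization. The HFC array of Week 3 was saturated for Mdh2. Its Week 3 difference of 0.36 is thus an upper bound, and its sign in that week is not settled. That array was also saturated for 15 of the 21 respiratory chain genes and 8 of the 19 of fatty acid oxidation. It was saturated for 7 of the 19 of triglyceride storage, 6 of the 16 of the tricarboxylic acid cycle and 5 of the 16 of glycolysis. The Week 3 differences of these genes are bounds. Insulin and IGF signalling (16 genes) had a median of 0.20, with 12 higher and 4 lower. The 10 adipokines had a median of 0.01, and -0.12 after quantile normalization, with leptin (Lep) at -1.02 (SE 0.55) and the protease Cfd (adipsin) at 0.76 (SE 0.39). White adipocyte markers (9 tested of 12) had a median of 0.40, and -0.06 with normexp, with Agt, angiotensinogen, at 0.88 (SE 0.38).

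**Figure D4:**
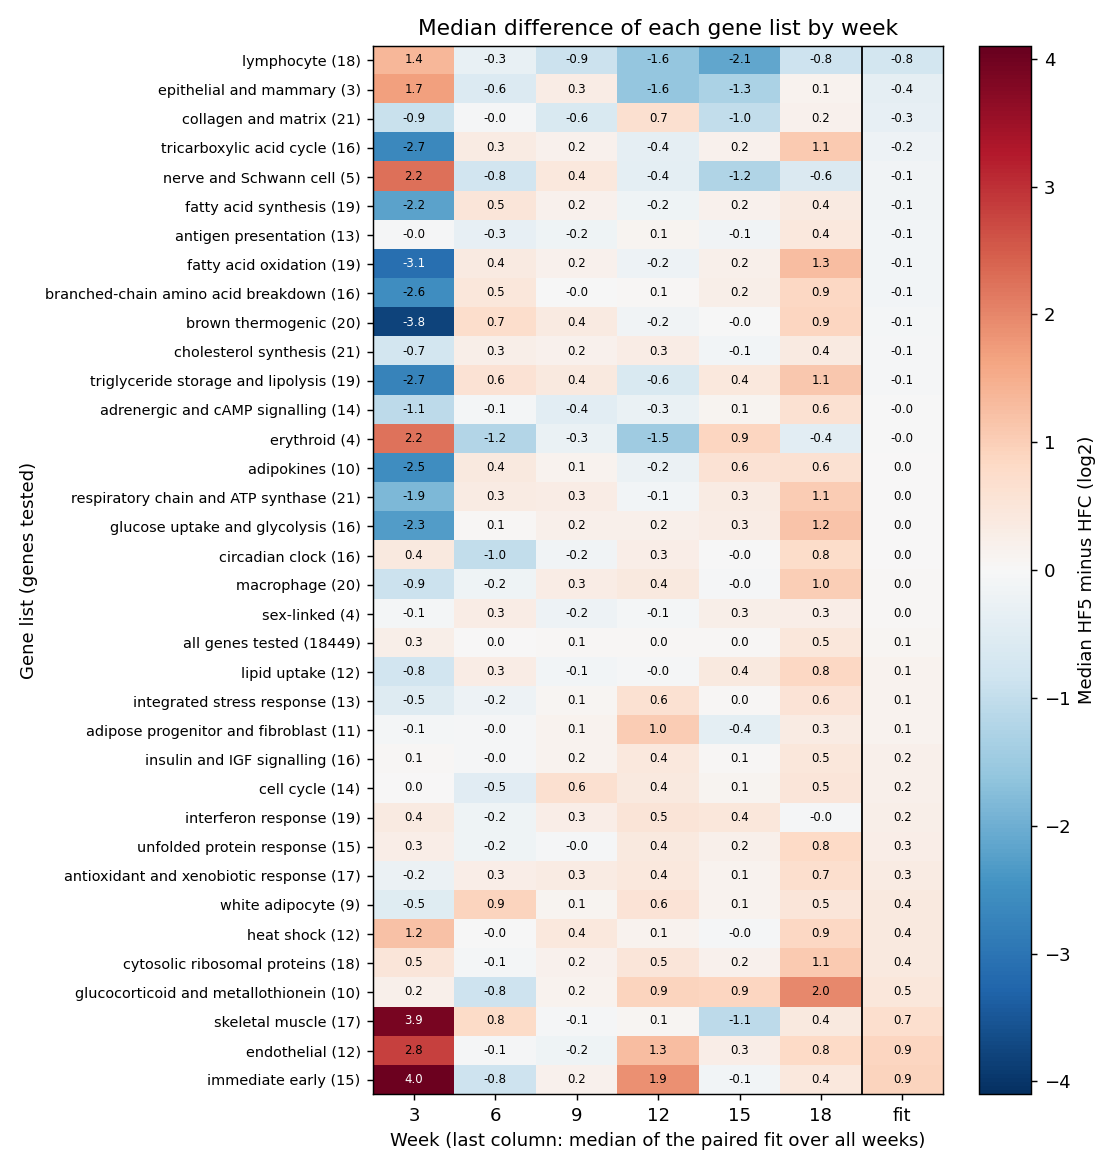
Median difference (HF5 minus HFC, log2, colour and printed value) of each of 35 gene lists and of all genes tested in each week, with the median of the paired fit over all weeks in the last column and the number of genes tested in brackets. Brown thermogenic genes (-3.81), fatty acid oxidation (-3.08), skeletal muscle (3.88) and immediate early genes (4.03) have their extreme medians at Week 3.

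The immune lists split. Macrophage genes (20) had a median of 0.04, with 11 higher and 9 lower, and Trem2 and Cd14, the lipopolysaccharide co-receptor (0.46, SE 0.25), were higher in 6 of 6 weeks, where 4.07% of all genes were. Adgre1, a surface marker of tissue macrophages, differed by 0.24 (SE 0.39) and Cd68 by 0.40 (SE 0.27), while Itgam, an integrin of myeloid cells, differed by -0.85 (SE 0.53), Cd163, a scavenger receptor, by -0.39 (SE 0.39) and Csf1r, the receptor of macrophage growth factor, by -0.28 (SE 0.36). Itgam was not well above background in HF5 at Weeks 3, 6, 9, 12 and 18, nor in HFC at Weeks 6, 9 and 18. In bulk tissue fewer cells of a type and less RNA per cell cannot be told apart.

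Of 18 lymphocyte genes tested out of 21, 17 were lower in HF5, where 8033 of all 18449 genes were, with a median of -0.76. At an unadjusted p under 0.05 there were 3 of them, where 2.85% of all genes were lower. These were Nkg7, a granule protein of cytotoxic cells (-1.53, SE 0.51), Gzmb, granzyme B (-1.47, SE 0.51), and Zap70, a kinase of the T cell receptor (-0.97, SE 0.39). The exception to the direction was Cd27, a costimulatory receptor (0.05, SE 0.50). Members lower in at least 5 of 6 weeks numbered 7 of 18, where 11.6% of all genes were, and members lower in 6 of 6 weeks numbered 0. The weekly medians were 1.37, -0.31, -0.89, -1.58, -2.14 and -0.84, so Week 3 went the other way, and all 18 members were higher there and lower at Week 15. The median was -1.29 without Week 3 and -1.21 over Weeks 6, 9 and 15. At Week 18, 16 of 18 members in HF5 and 10 of 18 in HFC were not well above background, and with the floor that week's median turned from -0.84 to 0.73, where a gene below background on both arrays gives 0.76. Over the 6 weeks the median was -0.62 after quantile normalization, -0.35 with signals floored at the background and -0.22 with normexp. These genes were dim, with 0 of 18 well above background on all 12 arrays. The mean level of the list ran from -3.94 to -2.12 in HF5 and from -4.55 to -1.01 in HFC. The HFC arrays of Weeks 12 and 15, where the median was lowest, had 78.8% and 67.3% of probes well above background against 56.1% and 57.1% for HF5. With brightness as a covariate the median was -1.36, and the part of detection in the result was not tested. Cd3e, the T cell receptor subunit, was lower in 5 of 6 weeks (-0.87, SE 0.43). Cd4, Cd8a and Cd79a did not pass the filter on dim probes.

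**Figure D5:**
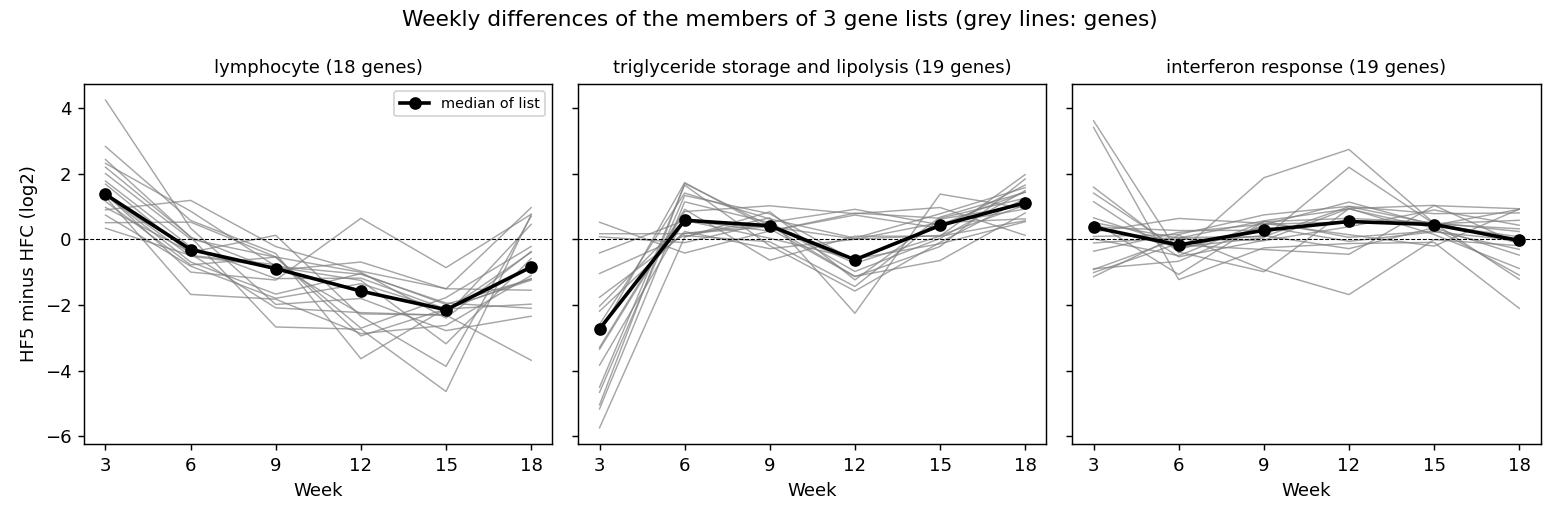
Weekly differences (HF5 minus HFC, log2) of each tested member of the lymphocyte list (18 genes), the triglyceride storage and lipolysis list (19 genes) and the interferon response list (19 genes), as grey lines with the list median in black. The lymphocyte median goes from 1.37 at Week 3 to -2.14 at Week 15, the triglyceride median is -2.73 at Week 3 and 1.11 at Week 18, and the interferon median stays between -0.18 and 0.54.

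Antigen presentation (13 genes) had a median of -0.12 with opposite members. The class II genes H2-Aa (-0.74, SE 0.29) and H2-DMa were lower at an unadjusted p under 0.05, the former in 5 of 6 weeks, while a second probe of H2-Aa, well above background on 12 of 12 arrays, gave 0.15. Psmb9, a subunit of the immunoproteasome, was higher at an unadjusted p under 0.05 (0.74, SE 0.30), and Psmb8, another, was higher in 6 of 6 weeks (0.37, SE 0.25). Ciita, the master regulator of class II genes, differed by -0.27 (SE 0.28).

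Of 19 interferon response genes, 16 were higher and 3 lower in HF5, where 10416 of all 18449 genes were higher. Their median was 0.23. Ifit3 (0.59, SE 0.25) and the oligoadenylate synthetase Oas1a (0.37, SE 0.22) were higher in 6 of 6 weeks, where 4.07% of all genes were. Ifit3 was the member at an unadjusted p under 0.05, where 2.79% of all genes were higher. Isg15, a ubiquitin-like protein, differed by 0.00 (SE 0.29) and Irf7, a transcription factor of the response, by -0.64 (SE 0.31). Interferon-stimulated genes are known to be switched on through a short repeat in their promoters, searched here on both strands as GAAA, any 2 bases and GAAA again, with overlapping matches counted. RefSeq promoters (250 bases before to 50 after the gene start, build GRCm38.p6) were found for 15 of the 19 members, and 10 of these 15 (66.7%) held the motif, against 952 of all 27025 promoters (3.52%). The promoters of Ifit3 and Isg15 are shown with the motif in capitals because both hold it, while Ifit3 had the highest difference among members well above background on 12 arrays and Isg15 the one nearest 0.
Ifit3, chr19:34583279-34583578, plus strand: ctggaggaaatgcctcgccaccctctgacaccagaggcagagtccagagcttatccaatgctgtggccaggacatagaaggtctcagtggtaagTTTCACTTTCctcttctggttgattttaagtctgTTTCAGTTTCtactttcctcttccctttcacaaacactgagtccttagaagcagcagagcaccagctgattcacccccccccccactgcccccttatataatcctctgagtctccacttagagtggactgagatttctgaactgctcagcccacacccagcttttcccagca
Isg15, chr4:156200769-156201068, minus strand: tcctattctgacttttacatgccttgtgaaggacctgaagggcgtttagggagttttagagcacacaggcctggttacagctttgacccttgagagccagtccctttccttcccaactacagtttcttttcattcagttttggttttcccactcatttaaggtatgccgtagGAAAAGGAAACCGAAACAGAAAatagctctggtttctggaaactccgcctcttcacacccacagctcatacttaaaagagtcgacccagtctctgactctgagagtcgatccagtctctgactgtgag

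Genes of other cell types had their largest medians in single weeks. All 12 endothelial genes were higher in HF5, with a median of 0.89, where 10416 of all 18449 genes were higher. At an unadjusted p under 0.05 there were 3, Flt1 (0.96, SE 0.39), Egfl7 (0.90, SE 0.39) and Emcn (1.01, SE 0.43), where 2.79% of all genes were higher. Their weekly medians were 2.81, -0.06, -0.17, 1.28, 0.28 and 0.81. The median was 0.47 without Week 3 and 0.04 with brightness as a covariate. Skeletal muscle genes (17) had a median of 0.70, from 3.88 at Week 3 to -1.08 at Week 15. It was 0.09 without Week 3, -0.02 over Weeks 6, 9 and 15 and -0.33 with brightness as a covariate. Their mean level ran from -1.48 to 1.39 in HF5 and from -3.61 to 1.30 in HFC. Myh7, a slow myosin, was 8.72 apart at Week 3, or 8.08 with the floor, and between -0.99 and 0.54 in the other weeks. The 4 of 10 erythroid genes tested had a median of -0.01 (0.13 with normexp), from 2.21 at Week 3 to -1.46 at Week 12. The globin genes Hba-a1 and Hbb-bt among them were saturated on most arrays of both groups, so their differences are not measured exactly. The 5 genes of nerve and Schwann cells had a median of -0.14 (0.03 with the floor) and the 3 epithelial genes -0.38. The part of these cells in the other results was not tested, apart from a fit with the muscle list's mean as a covariate, which called 0 genes.

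Of 21 collagen and matrix genes 14 were lower, with a median of -0.32, where 8033 of all 18449 genes were lower. Col1a1, the main fibrillar collagen, differed by -0.76 (SE 0.31) and was lower in 5 of 6 weeks, and Col3a1 by -0.32 (SE 0.32), while Fn1, fibronectin, differed by 0.74 (SE 0.46). Adipose progenitor genes (11) had a median of 0.15, or -0.12 with normexp, and Cd34, a surface protein of progenitors and endothelium, was higher in 6 of 6 weeks (0.93, SE 0.37).

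The immediate early genes had their largest weekly medians at Weeks 3 and 12. All 15 immediate early genes were higher in HF5, where 10416 of all 18449 genes were, with a median of 0.92. But the weekly medians were 4.03, -0.85, 0.16, 1.88, -0.10 and 0.44. The median turned to -0.32 with brightness as a covariate and to -0.26 over Weeks 6, 9 and 15. Fos, which cells switch on within minutes of a stimulus, was 8.38 apart at Week 3 and between -1.09 and 0.44 in the other weeks. Heat shock genes (12) had a median of 0.41, 0.07 over Weeks 6, 9 and 15. Metallothionein and glucocorticoid genes (10) had 0.48, the unfolded protein response (15) 0.26 and the integrated stress response (13) 0.13. The antioxidant and xenobiotic list (17) had 0.33, with Cyp1a1, the enzyme induced through the aryl hydrocarbon receptor, at 2.50 (SE 1.20), with 9.93 at Week 3, or 7.64 with the floor, and 2.45 at Week 12. Nqo1, an antioxidant enzyme, differed by 0.85 (SE 0.42), most at Week 3 with 2.61. Of 18 cytosolic ribosomal protein genes 16 were higher, where 10416 of all 18449 genes were. Their median was 0.42, but 0.05 after quantile normalization. Cell cycle genes (14) had a median of 0.21, or -0.15 with normexp, and Aurka, a mitotic kinase, was higher in 6 of 6 weeks (0.61, SE 0.25), yet at -0.18 with normexp. Clock genes (16) had a median of 0.03, or -0.04 with normexp, with -1.02 at Week 6, where Per2 (-2.97) and Dbp (-2.43) were lower and Arntl (2.58) was higher. Arntl works in opposite phase to Per2 and Dbp, and the hour of killing was not given in the labels used here. The 4 sex-linked genes had 0.05, or -0.03 with normexp.

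The other doses were set beside HF5. Their comparisons use the same HFC arrays and so are not independent of it. The arrays also differed in brightness. At Weeks 3, 6, 12 and 15 the 75th percentile was 857, 770, 728 and 689 units in HF20 and 695, 163, 120 and 239 in HFC. In HF75 it was 871, 114, 71.7 and 213. The part of brightness in the following differences from HFC was not tested. In HF20 and HF75 against HFC, Trem2 gave 0.25 and 0.96, Capg 0.20 and 1.08, S100a4 0.77 and 1.20, Oas2 -0.98 and 0.76, and Aprt 0.23 and 0.76. Among the lower genes, H2-DMa gave -0.20 and -1.37, Cybb -0.36 and 0.07, Ms4a4b 0.35 and -0.20, and Plaat5 -1.78 and -3.24. Against the low fat diet, the same HFC arrays gave 0.53 for Trem2, 0.02 for Capg, -0.64 for Oas2, -0.53 for H2-DMa and -2.29 for Plaat5 as LFC minus HFC. Tested directly over 30 arrays, HF5 against the mean of HF20 and HF75 gave 0 of 20724 genes (0%) by limma, with 0.673 as the lowest adjusted p and 1348 genes under 0.05 before adjustment. The first of these were Npb, a neuropeptide precursor, 1.64 higher in HF5 (SE 0.37), and Pkia, an inhibitor of protein kinase A, at -1.12 (SE 0.26), which were singled out after their values were seen.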

How the data were processed

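Total RNA of brown adipose tissue was labelled with Cy3 by linear amplification and hybridised to a custom 1-colour Agilent mouse array. The authors deposited scanner files with a processed intensity per spot, already background-subtracted, and a table of log2 values. The file headers name Feature Extraction 10.5.1.1 and the labels' processing notes 9.1. Each deposited log2 value is a difference from the LFC array of its week. The Week 15 columns of that table are out of probe order, so the table served only as an alternative.

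Outlier-flagged spots were removed, which dropped 1 or more arrays for 35 of the genes tested. Spots of a probe were averaged, the log2 of the array's 75th percentile was subtracted, and for each gene the brightest probe over the 12 arrays was kept. Of 40628 probes, 28136 were named by accession, 4982 by symbol and 1406 by synonym in the RefSeq table, and 6104 kept the name of the file. A gene was tested where 4 or more of the 12 arrays measured it well above background (18449 of 29411). limma 3.58.1 in R 4.3.3 fitted group and week with lmFit and eBayes, with Benjamini-Hochberg adjustment. Week is a shared sampling time, and both arrays of every week were scanned on the same day. The sample titles of the Week 3 pair carry different R numbers, whose meaning was not established here. Same-week deviations correlated at -0.16 in Week 3 and 0.36 to 0.62 in the other weeks. The fits were tested on simulated data with large planted changes. A pass was required only at a small, equal spread in every gene, so it does not show the power at the spread of these genes. The number of arrays limits the precision.

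The text names the 10 genes higher and 10 lower with the smallest p, the same sign in 6 of 6 weeks, at least 10 arrays well above background and an established symbol, the 3 smallest p of all, the first 2 and the 2 smallest p of each list, the 3 smallest p for change with week, and Aebp1, Aprt and Aifm3. List members given for their role fall outside this rule. Some genes that the rule names are not reported here. The comparison, the lists and the genes were chosen with earlier results of these data known. Alternatives covered scaling, background, filter, probe choice, week block, weights, brightness, muscle signal, slide, the methods' t-test and each week left out. A fit over Weeks 6, 9 and 15, the brightness without each week and the change with week on floored signals were added after the data were seen.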

Additional observations from a re-analysis of the deposited data

Results flagged for a closer look

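Dixon's test for a value far from the others of its group was applied to 69 groups of 6 weeks or arrays. It picked out 11, and chance picks out about 1 group in 20. At Week 3 there were 9 of these. The HFC array of Week 3 had 488 saturated probes, where the next HFC array had 43. The median differences of the gene lists at Week 3 were 3.88 for skeletal muscle, -3.81 for the thermogenic genes of brown fat, -3.08 for fatty acid oxidation, -2.19 for fatty acid synthesis, -2.28 for glucose uptake and glycolysis, -2.56 for the breakdown of branched-chain amino acids and -2.55 for adipokines. Among the named genes, Foxd2 differed by 2.34 at Week 3, where its next highest week gave 1.17. Trem2 differed by 2.32 at Week 12, where its next highest week gave 0.95, and Aifm3 by -2.78 at Week 18, where its next lowest week gave -1.27. The Week 18 value of Aifm3 was -0.85 with signals floored at the background.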

How the results depend on the processing

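The count of genes called between HF5 and HFC was 0 under all 25 alternatives that used an adjusted p, with a smallest adjusted p of 0.0888 (limma, array weights) and 0.198 without Week 3. Without the week as replicate block it was also 0, with a smallest adjusted p of 0.931 (limma). The methods' t-test gave 1172 genes at an unadjusted p under 0.05 and 0 after adjustment, and a rule of 2-fold in all 6 weeks gave 2. Leaving out each week in turn gave 0 to 1082 genes whose difference changed with week, the highest without Week 6. At an unadjusted p under 0.05, 428 genes were higher and 324 lower after quantile normalization, 616 and 269 with signals floored at the background, and 174 and 857 with each week's median subtracted. The floor took the 2-fold counts from 2131 to 1371 at Week 6 and from 2617 to 1100 at Week 9. The brightness difference ranged from -0.75 to -0.32 without each week in turn (chosen after seeing the data). The causes of these shifts were not tested. Of the list medians, that of insulin and IGF signalling was -0.04 over Weeks 6, 9 and 15 (also chosen after seeing the data), and that of the epithelial list 1.03 and 1.24 in the deposited table with and without Week 15. The named differences of Ifit3, Trib3, Rplp0 and Rps3 shrank to 0.19 (deposited table as it stands, with Week 15 out of order), 0.02 (mean of all probes), 0.06 and 0.05 (quantile normalization). The signal over background limits Plaat5, Gm5955, Gm11783, Aebp1 and the lymphocyte genes, which were below background on some arrays.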
